A study of Mus musculus with 8 samples.

Results

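The genes described here are the kainate receptor subunits Grik1, Grik2, Grik3, Grik4 and Grik5, the delta receptor subunit Grid1, and Neto1 and Neto2, the auxiliary subunits of kainate receptors. They were taken as the non-control probes that the array's own annotation names for these 8 genes, which gave 13 of 55681 non-control probes and 8 of 24439 named genes. Grik1, Grik2, Grik3, Neto1 and Neto2 each had a pair of probes, called upstream and downstream here by their order along the direction of transcription, while Grik4, Grik5 and Grid1 had 1 probe each. All 13 probes were well above background on all 8 arrays and all 13 were tested.

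The study set 4 striatal samples from R6/2 mice against 4 from wild-type (WT) control mice, all from males aged 4 weeks. R6/2 mice carry a fragment of the human huntingtin gene, the first exon with an expanded CAG repeat under the human promoter, and are a mouse model of Huntington's disease. The labels do not give the strain background or the repeat length, and they do not say whether separate animals were used, so the spread behind every p-value is that between samples and may be technical in part. All 8 arrays lay on 1 slide with 1 scan date, and each genotype filled one bank of positions on it, so genotype and bank cannot be told apart. The share of probes well above background was 61.5% to 67.7% per array, the 75th percentile of the signal was 434 to 486, and no spot was saturated. RNA came from whole striatal tissue, in which fewer cells of a type and less RNA per cell cannot be told apart.

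Kainate receptors are glutamate-gated cation channels built of 4 subunits. GluK1, GluK2 and GluK3, encoded by Grik1 to Grik3, form channels by themselves, whereas GluK4 and GluK5, encoded by Grik4 and Grik5, bind glutamate with high affinity and need one of GluK1 to GluK3 to form a working channel. Neto1 and Neto2 are single-pass membrane proteins with CUB domains that bind kainate receptors, slow their gating and influence where they sit. GluD1, encoded by Grid1, belongs to the delta class, which organises synapses by binding secreted cerebellins that bridge to neurexins. In the striatum, kainate receptors occur on projection neurons and on the terminals of cortical inputs.

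The probes of Grik2 and Neto2 are shown because the called differences lie there. Each probe had 60 bases, printed in lower case and 5′ to 3′ as the array design gives it, whole for Grik2 upstream and as its first 30 bases for the others. Probe positions, as the scanner files give them, are on build mm9, for which no exon annotation was used. Grik2 upstream lay at chr10:49243534-49243593 on the minus strand and held no stop codon in any of its 3 forward reading frames. Grik2 downstream lay 424 kb further along the gene, at chr10:48819269-48819325 on the minus strand. Neto2 upstream lay at chr8:88164316-88164375 and Neto2 downstream at chr8:88161508-88161567, both on the minus strand and 2.81 kb apart.
Grik2 upstream: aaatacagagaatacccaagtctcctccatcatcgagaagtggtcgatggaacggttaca
Grik2 downstream: tagaaaatatacatcaaggggtcttaggat
Neto2 upstream: tctccgcatccaatcttgttctatcaaatt
Neto2 downstream: acactttgttgcaaaatgatgtctgccata

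In R6/2 striatum 3 of the 13 probes fell, 1 of the 2 for Grik2 and both for Neto2, and none rose. The R6/2 signal was 66.7% of WT for Grik2 downstream, 59.7% for Neto2 upstream and 58.2% for Neto2 downstream, as ratios of geometric means over 4 arrays each. The call required an adjusted p under 0.05 from limma, with Benjamini-Hochberg adjustment over the 35121 tested probes. Of those, 1.51% were called and 1.14% were called lower in R6/2. The 3 calls come from 2 genes, so they are not 3 independent results. The array design assigns the Neto2 probes to 1 transcript and the Grik2 probes to different transcripts of the gene. With each gene represented by its probe of highest mean signal, 1 of the 8 genes was called, Neto2, against 1.9% of the 17807 genes tested (1.43% called lower in R6/2).

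All 13 log2 differences, R6/2 minus WT, were negative, as were those of 48.1% of all tested probes. Their median was -0.32, beside 0.01 over all tested probes. For 5 of the 13 probes every R6/2 array lay below every WT array, which held for 6.19% of all tested probes, while 12.4% had no overlap in either direction. These were both Grik2 probes, both Neto2 probes and Neto1 upstream. An unadjusted p under 0.05 was reached by 17% of all tested probes, so unadjusted p-values of this size were common on this slide.

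**Figure D1:**
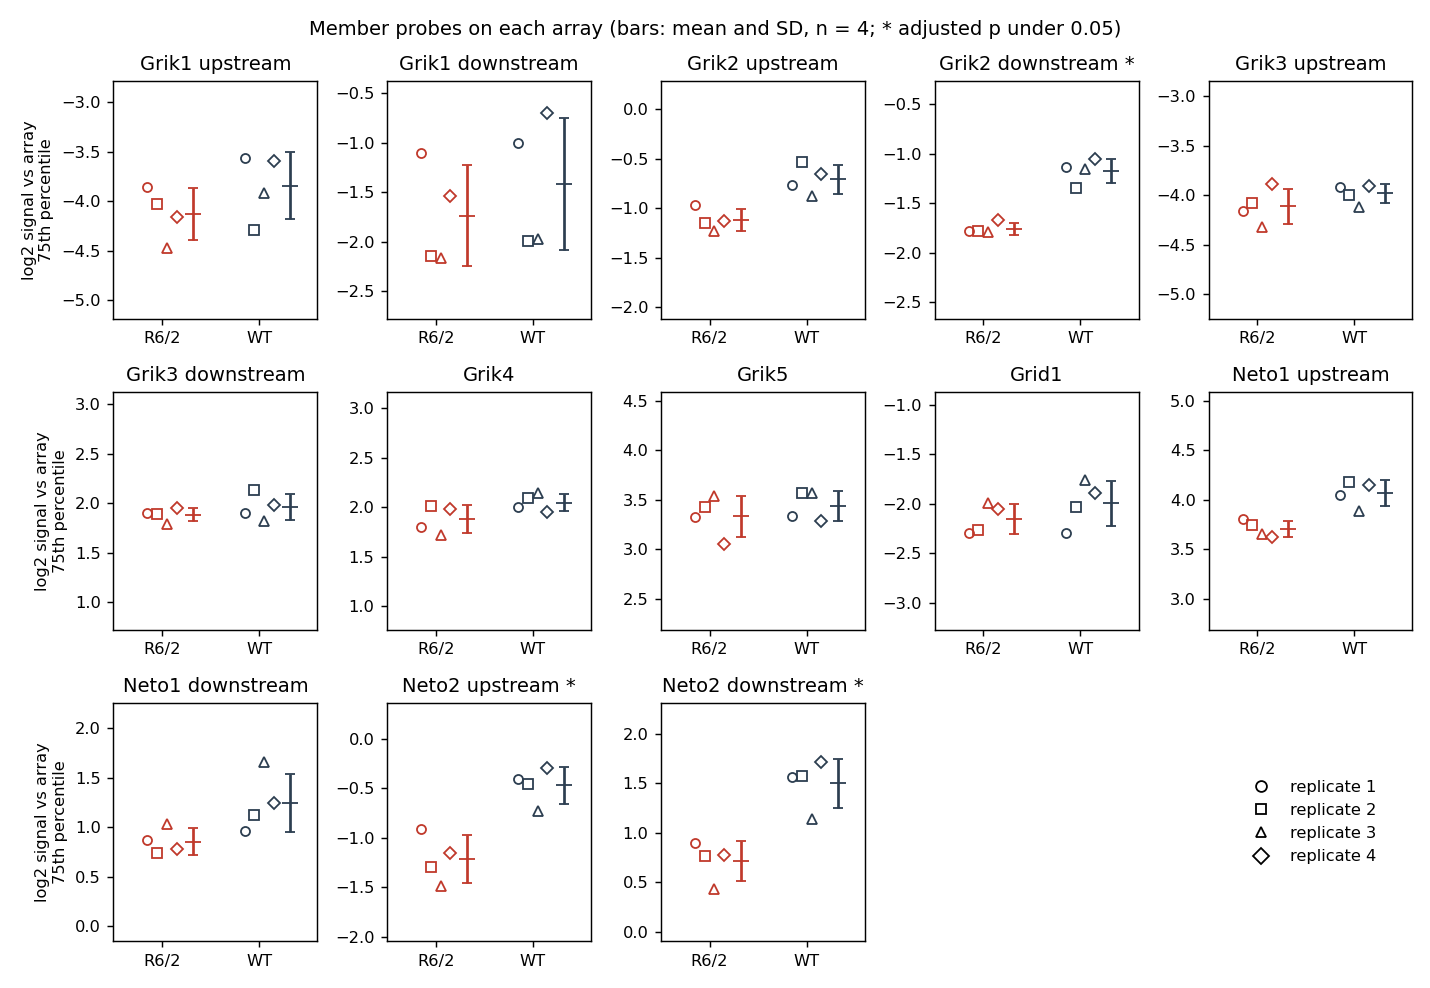
Log2 signal relative to the array's 75th percentile (y axis) of the 13 probes on each array, with R6/2 arrays in red left of WT arrays in dark blue and the symbol giving the replicate number. Every panel spans the same log2 range. Horizontal ticks and vertical bars give the mean and SD of 4 arrays, and a star marks the 3 probes with adjusted p under 0.05. In both Grik2 panels, both Neto2 panels and Neto1 upstream the R6/2 arrays all lie below the WT arrays.

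The channel-forming subunits come first. Grik2, which encodes GluK2, had log2 signals at its downstream probe of -1.78, -1.78, -1.79 and -1.67 on the R6/2 arrays and of -1.14, -1.35, -1.15 and -1.05 on the WT arrays, relative to each array's 75th percentile. The 4 R6/2 values lay within a narrow band, and all were below the lowest WT value. Its mean was -1.76 ± 0.060 in R6/2 and -1.17 ± 0.125 in WT (SD, n = 4 each), a difference of -0.58 ± 0.08 (SE; 95% interval -0.77 to -0.40; limma adjusted p = 0.0219). On the linear scale its processed signal was 125 to 145 in R6/2 and 176 to 234 in WT. That is below each array's 75th percentile, as are about 75% of signals by definition, and well above background on every array. It ranked 135th by p among the 35121 tested probes.

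At the upstream probe of Grik2 the log2 signals were -0.97, -1.15, -1.23 and -1.13 in R6/2 and -0.76, -0.54, -0.88 and -0.66 in WT. The groups did not overlap, but the gap between the highest R6/2 value and the lowest WT value was small. The difference was -0.41 ± 0.10 (SE; 95% interval -0.63 to -0.19) and did not pass the threshold (limma adjusted p = 0.0806). The downstream minus upstream contrast within each array differed between genotypes by -0.17 ± 0.13 (SE; exact permutation p = 0.257, two-sided, adjusted p = 0.6 over 7 such pairs). With 4 arrays against 4 the smallest p this test allows is 0.0286, and the p of this pair lay above it. A single pair reaching that p alone cannot go below 0.2 after adjustment over the 7 pairs. A high adjusted value therefore does not show equal responses. Within replicate numbers the contrast was -0.44, 0.18, -0.29 and -0.14, which is not of one sign.

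Grik1, which encodes GluK1, did not pass the test at either probe. Grik1 downstream had log2 signals of -1.11, -2.15, -2.16 and -1.54 in R6/2 and of -1.001, -1.99, -1.98 and -0.70 in WT. Here the arrays numbered 1 and 4 lay above those numbered 2 and 3 in both genotypes, with a gap of 0.44 between the sets and means of -1.09 and -2.07 over 4 arrays each. The genotype difference was -0.32 ± 0.36 (SE; 95% interval -1.16 to 0.52; limma adjusted p = 0.703). Taken apart by replicate number after the values were seen, it was -0.47 within the arrays numbered 1 and 4 and -0.17 within those numbered 2 and 3. All 4 R6/2 arrays lay below the WT array of the same number. With the replicate number as a block the difference was again -0.32, with an SE of 0.14, and was not called (limma adjusted p = 0.274). The labels do not say what a replicate number stands for, and on the slide it is also the position within the bank. In the sample descriptions, the R6/2 and WT arrays numbered 1, 2 and 3 carry matching sample numbers, but those numbered 4 do not.

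Grik1 upstream was dim, with a processed signal of 19.6 to 33.1 in R6/2 and 22.8 to 40.2 in WT, though marked well above background on every array. Its log2 signals were -3.85, -4.03, -4.47 and -4.16 in R6/2 and -3.56, -4.29, -3.92 and -3.60 in WT, which overlapped. The difference was -0.29 ± 0.19 (SE; limma adjusted p = 0.5), and the downstream probe lay 16.6 kb away on chromosome 16. By replicate number, the WT arrays 1 and 4 again lay above the WT arrays 2 and 3, while the R6/2 arrays did not separate that way, and the means were -3.79 for the arrays numbered 1 and 4 and -4.18 for those numbered 2 and 3.

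**Figure D2:**
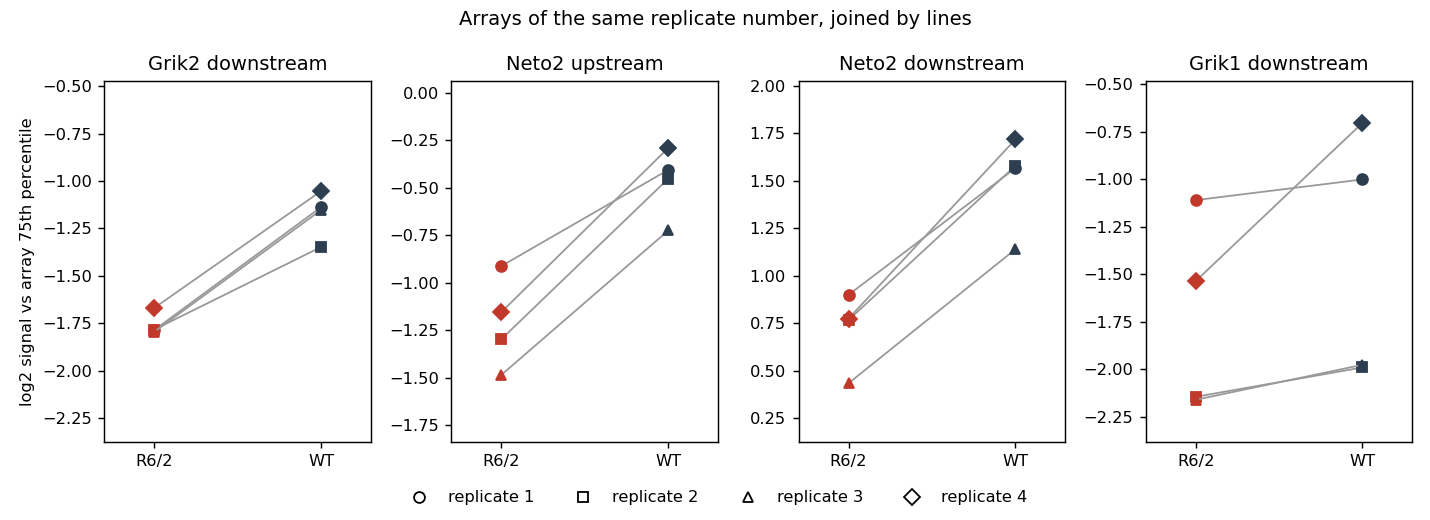
Log2 signal relative to the array's 75th percentile (y axis) of the 3 called probes and of Grik1 downstream, with R6/2 left of WT and a line joining the arrays of the same replicate number. All 4 lines rise towards WT in each panel, and in the Grik1 panel the arrays numbered 1 and 4 stand above those numbered 2 and 3 in both genotypes.

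Grik3, which encodes GluK3, had the smallest difference of the 13 probes. Grik3 downstream had log2 signals of 1.91, 1.89, 1.79 and 1.95 in R6/2 and of 1.90, 2.13, 1.82 and 1.98 in WT, a difference of -0.07 ± 0.08 (SE; 95% interval -0.27 to 0.12; limma adjusted p = 0.705). The groups overlapped in part, with only R6/2 array 3 below the lowest WT array and the WT values of 2.13 and 1.98 above every R6/2 value. Grik3 upstream, dim at a processed signal of 21.8 to 31.2 in R6/2 and 25.0 to 32.4 in WT, differed by -0.13 ± 0.10 (SE; 95% interval -0.37 to 0.11; limma adjusted p = 0.580). These intervals do not show that Grik3 was equal in the 2 genotypes. At the downstream probe the interval leaves out a fall as large as the -0.58 measured at Grik2 downstream. The interval of the upstream probe leaves it out too, but that probe was dim, and whether its low signal hid a change was not tested.

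The high-affinity subunits had no call. Grik4, which encodes GluK4, had log2 signals of 1.80, 2.01, 1.72 and 1.98 in R6/2 and of 2.00, 2.10, 2.14 and 1.95 in WT. Of the R6/2 arrays, those numbered 1 and 3 lay below the lowest WT array and the other two lay inside the WT range. The difference was -0.17 ± 0.09 (SE; 95% interval -0.38 to 0.04; limma adjusted p = 0.389).

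Grik5, which encodes GluK5, had log2 signals of 3.33, 3.42, 3.54 and 3.05 in R6/2 and of 3.33, 3.57, 3.57 and 3.29 in WT. Only R6/2 array 4 fell outside the WT range. The difference was -0.11 ± 0.12 (SE; 95% interval -0.39 to 0.18; limma adjusted p = 0.708). GluK5 pairs with GluK2 in many brain receptors. The Grik2 upstream minus Grik5 contrast within each array differed between genotypes by -0.31 ± 0.17 (SE; exact permutation p = 0.143, two-sided, adjusted p = 0.5 over the 7 pairs). Grik2 upstream, which was not called, is the Grik2 probe of higher mean signal. Within replicate numbers, looked at after the values were seen, the contrast was -0.19, -0.47, -0.32 and -0.24, negative in 4 of 4 numbers. An exact sign-flip test on 4 numbers cannot give a p below 0.125, so none is given.

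Grid1 overlapped in part between the genotypes, with log2 signals of -2.30, -2.26, -1.99 and -2.06 in R6/2 and of -2.30, -2.03, -1.76 and -1.89 in WT. The WT values of -1.76 and -1.89 lay above every R6/2 value. No R6/2 array lay below the lowest WT array. The difference was -0.16 ± 0.13 (SE; 95% interval -0.46 to 0.14; limma adjusted p = 0.595).

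Neto2, the auxiliary subunit with the largest differences among the 13 probes, was lower in R6/2 at both positions. Neto2 downstream had log2 signals of 0.90, 0.77, 0.43 and 0.77 in R6/2 and of 1.57, 1.58, 1.14 and 1.72 in WT. R6/2 array 3 and WT array 3 were the lowest of their genotypes, and the highest R6/2 value stayed below the lowest WT value. The mean was 0.72 ± 0.199 in R6/2 and 1.50 ± 0.251 in WT (SD, n = 4 each), a difference of -0.78 ± 0.15 (SE; 95% interval -1.12 to -0.44; limma adjusted p = 0.0493).

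Neto2 upstream had log2 signals of -0.91, -1.30, -1.49 and -1.15 in R6/2 and of -0.41, -0.45, -0.73 and -0.29 in WT. The order of the arrays was much as at the other Neto2 probe, with array 3 lowest in both genotypes and no overlap. The difference was -0.74 ± 0.14 (SE; 95% interval -1.07 to -0.42; limma adjusted p = 0.0499), so both Neto2 calls sat at the threshold. The downstream minus upstream contrast differed between genotypes by -0.04 ± 0.06 (SE; exact permutation p = 0.6, two-sided, adjusted p = 0.84 over the 7 pairs).

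Neto1, whose protein also associates with NMDA receptors, did not pass the test. Neto1 upstream, at chr18:86670386-86670445 on the plus strand, had log2 signals of 3.80, 3.74, 3.65 and 3.62 in R6/2 and of 4.04, 4.18, 3.89 and 4.15 in WT. All R6/2 arrays lay below all WT arrays, yet the difference of -0.36 ± 0.09 (SE; 95% interval -0.56 to -0.16) had a limma adjusted p of 0.0851. Neto1 downstream, 1.70 kb away, had log2 signals of 0.87, 0.74, 1.04 and 0.79 in R6/2 and of 0.97, 1.13, 1.66 and 1.24 in WT. There R6/2 array 3 lay above WT array 1, and the difference was -0.39 ± 0.15 (SE; 95% interval -0.74 to -0.05; limma adjusted p = 0.235).

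The auxiliary subunits were set against each other within each array. The Neto2 downstream minus Neto1 upstream contrast differed between genotypes by -0.42 ± 0.11 (SE), with all 4 R6/2 arrays below the lowest WT array. Its exact permutation p of 0.0286 (two-sided) is the smallest this design allows, and after adjustment over the 7 pairs it became 0.2, which a single pair cannot go below, so the adjusted value says nothing on whether Neto1 and Neto2 responded alike. Within each replicate number, a comparison added after the values were seen, the contrast was -0.43, -0.37, -0.47 and -0.42, negative in 4 of 4 numbers with a mean of -0.42 ± 0.041 (SD). With 4 numbers an exact sign-flip test cannot give a p below 0.125, so none is given.

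**Figure D3:**
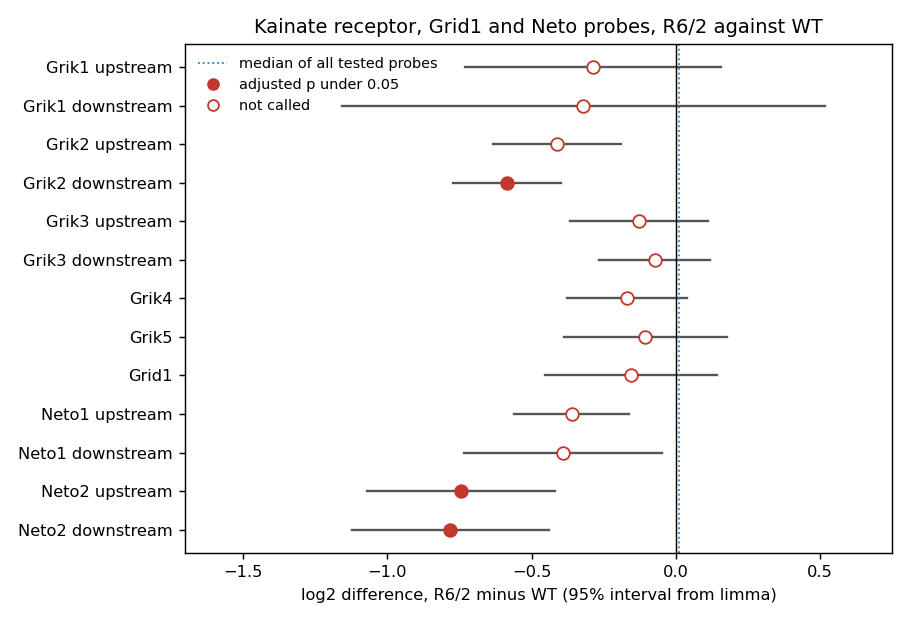
Log2 difference, R6/2 minus WT (x axis), of each of the 13 probes with its 95% interval from limma (horizontal bars). Filled points mark the 3 probes with adjusted p under 0.05, and the dotted line marks the median of all 35121 tested probes, 0.01. All 13 points lie left of 0, and the intervals of 6 probes exclude it.

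The calls, more than the differences, changed when single arrays were left out. The log2 difference stayed between -0.64 and -0.54 for Grik2 downstream, -0.84 and -0.65 for Neto2 upstream and -0.90 and -0.69 for Neto2 downstream, while the calls over the whole array were 100 to 505 against 529. Leaving out each array in turn, Grik2 downstream stayed past the threshold in 3 of 8 fits and both Neto2 probes in 1 of 8, the fit without WT array 3. The limma adjusted p of Grik2 downstream was 0.0566, 0.0818 and 0.0733 without R6/2 array 1, 2 or 3, and 0.0629 and 0.0669 without WT array 1 or 4. For Neto2 downstream it reached 0.131 without WT array 2, and for Neto2 upstream 0.132 without R6/2 array 2. In the authors' deposited table, all 13 probes are marked down, 5 have an unadjusted p under 0.05 and 0 of 13 has an adjusted p under 0.05. The authors' deposited table gives Grik2 downstream the lowest, 0.0561 at a fold of 1.49, and Neto2 downstream and upstream 0.136 and 0.137 at folds of 1.71 and 1.66.

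**Figure D4:**
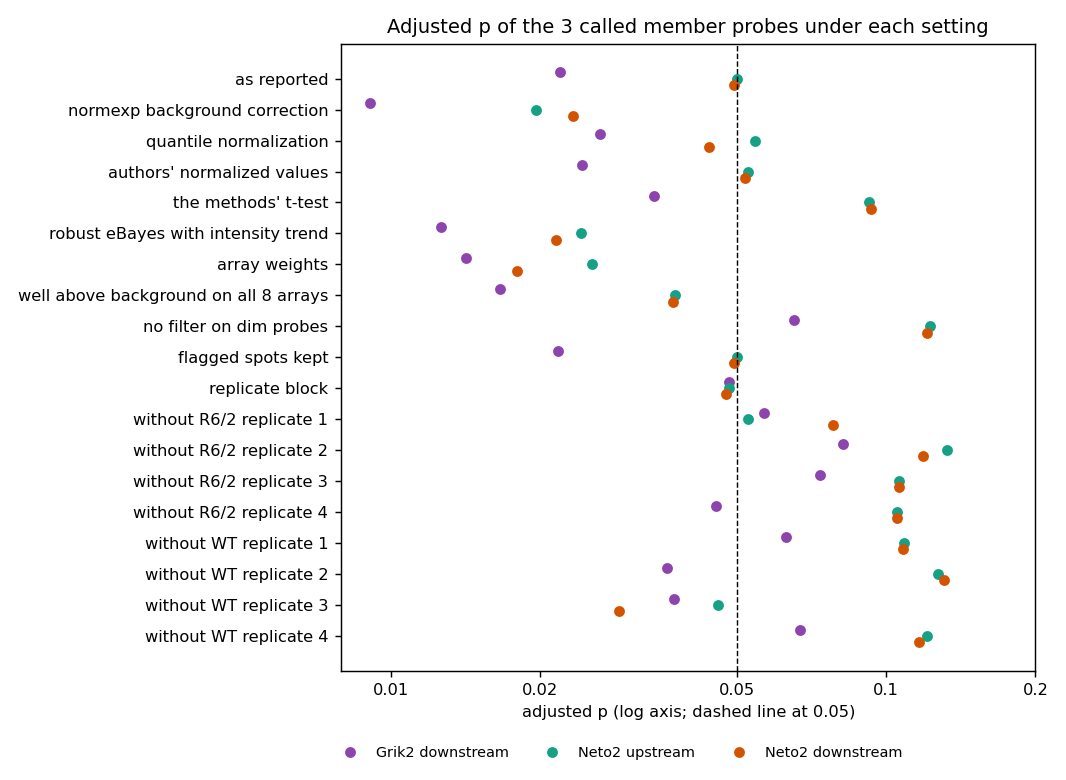
Adjusted p (x axis, log scale) of the 3 called probes as reported (top) and under 18 other settings (rows), including leaving out each array. The dashed line is the 0.05 threshold. Both Neto2 points lie right of the line in 7 of the 8 rows that leave out an array, and Grik2 downstream lies left of it in 3 of those 8 rows.

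The other ionotropic glutamate receptor genes were counted on the same array. Of 11 AMPA and NMDA receptor subunit genes, each by its brightest tested probe, all 11 had a negative log2 difference, 2 fell and none rose, beside 1.9% of all tested genes called. Their median was -0.22, against 0.02 over all tested genes. Grin3b, an NMDA receptor subunit, fell by 1.12 on the log2 scale (SE 0.15, limma adjusted p = 0.0186), with log2 signals of -3.45, -3.08, -3.23 and -3.55 in R6/2 and of -2.05, -2.01, -2.54 and -2.22 in WT. Its groups stood well apart, at signals far below the arrays' 75th percentile.

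Grin2a, which encodes the NMDA receptor subunit GluN2A, fell by 0.45 (SE 0.08, limma adjusted p = 0.0481), with log2 signals of 0.50, 0.61, 0.51 and 0.67 in R6/2 and of 0.84, 1.04, 1.09 and 1.12 in WT. Of the 2 tested Grin2a probes 1 was called. With the replicate number as a block, 0 of the 11 genes were called and the calls over the whole array went down to 283 from 529, while the 3 calls at Grik2 and Neto2 remained (limma adjusted p = 0.0482, 0.0482 and 0.0475 for Grik2 downstream, Neto2 upstream and Neto2 downstream).

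Partners of kainate and delta receptors were also counted, namely scaffold, trafficking, ubiquitin ligase and editing proteins together with the cerebellins, C1q-like proteins and neurexins that these receptors bind. Of 20 genes, 11 had a negative and 9 a positive log2 difference, 0 were called by limma and the median was -0.08. At an unadjusted p under 0.05 there were 3 of the 20, Snap25, Camk2a and Cbln2, beside 17% of all tested probes. The share over genes, each by its brightest probe, was not counted at this threshold. The methods' test without moderation also called 0 of the 20. The smallest p belonged to Snap25, a SNARE protein of vesicle fusion, with log2 signals of 6.25, 6.33, 6.40 and 6.26 in R6/2 and of 6.64, 6.61, 6.69 and 6.55 in WT. These did not overlap, and the difference was -0.31 ± 0.07 (SE; limma adjusted p = 0.0682). Camk2a, a kinase abundant at glutamatergic synapses, had a difference of -0.38 ± 0.09 (SE; limma adjusted p = 0.0897).

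Markers of cell types were counted in the same way. Of 10 projection neuron markers 9 were lower, 6 fell and none rose, with a median log2 difference of -0.73. Over all tested genes, 46.0% were lower, 1.43% fell and 1.9% were called in either direction. The mean of the list, each gene centred over the 8 arrays, was -0.68 to -0.13 on the R6/2 arrays and 0.24 to 0.45 on the WT arrays. Penk, which encodes the enkephalin precursor of striatopallidal neurons, fell by 1.11 (SE 0.11, limma adjusted p = 0.0102), and Tac1, the substance P precursor, had a difference of 0.21 (limma adjusted p = 0.328). All 10 were measured above background, and their part in the Grik2 and Neto2 results was not tested.

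Of 6 cortical glutamatergic neuron markers all 6 were lower and 0 were called by limma, 1 having an unadjusted p under 0.05 (Slc17a7), with a median of -0.46. Their list mean varied widely among the R6/2 arrays, at -0.80 to 0.44, and was -0.11 to 0.42 on the WT arrays. The lowest R6/2 array was number 3 and the highest number 4. Of 6 interneuron markers all were lower and 1 fell, Th, with a median of -0.52, beside the same 46.0% lower and 1.9% called over all genes. None of the markers of astrocytes (5 genes), oligodendrocytes (5 genes), their precursors (4 genes), microglia (5 genes) or endothelial cells (4 genes) was called by limma at its brightest probe, where only Gfap, an astrocyte filament gene, had an unadjusted p under 0.05. The log2 difference of Gfap was 0.34 at that probe (limma adjusted p = 0.168), 2.33 at another (limma adjusted p = 0.0584) and 1.20 at the third, which was called (limma adjusted p = 0.0431) and rose. The medians of these 5 lists ran between -0.10 and 0.14. The part of cell composition in the differences above was not tested.

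**Figure D5:**
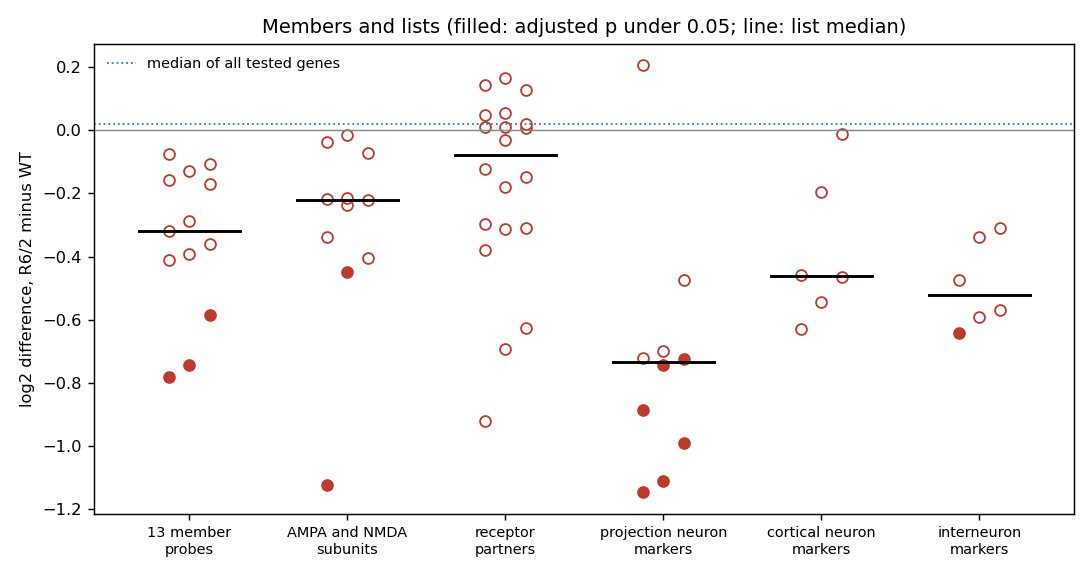
Log2 difference, R6/2 minus WT (y axis), of the 13 probes and of the genes of 5 lists, each gene by its brightest tested probe. Filled points have adjusted p under 0.05, black lines are list medians and the dotted line is the median of all tested genes, 0.02. The 13 probes, the AMPA and NMDA subunits, the cortical markers and the interneuron markers lie wholly below 0, and the partners lie on both sides.

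The genes most like Grik2 downstream across arrays were Map1lc3b, Zbbx and Eps15. Likeness was Pearson's r over the 8 arrays after each genotype's mean was taken off, so it describes the spread within genotypes and not the difference between them. It was 0.98 for each of the 3 (Spearman's rho 1, 0.90 and 1), the highest among 17807 genes searched. Without the 2 arrays farthest from the median, r was 0.94 for Map1lc3b, 0.90 for Zbbx and 0.91 for Eps15. All arrays share a slide and those of a genotype a bank of it, and a search of this size over 8 arrays yields high values by selection. None of the 3 was called between genotypes (limma adjusted p = 0.331, 0.649 and 0.340).

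The promoters of both genes with calls are printed to show the sequence before an annotated start of each. Of the 8 genes 5 had an entry, with 6 windows, in RefSeq's sequences on GRCm38.p6, a build other than that of the probe positions. Each line gives the 250 bases before the annotated start, 5′ to 3′ on the gene's strand, with matches to GGGCGG, the core of the Sp1 site, or to its reverse complement in capitals. Grik2 at chr10:49788755-49789004 on the minus strand had a GC content of 62.8% and no match. Neto2 had 2 windows on the minus strand, for different annotated starts. The one at chr8:85700925-85701174, farther upstream and printed here, had a GC content of 72.0% and 2 matches, and the one at chr8:85691010-85691259 had 42.4% and no match. Which start is used in striatum was not measured. The median GC content of all 32851 promoters was 52.4%, and 32.7% of them held the motif on either strand.
Grik2: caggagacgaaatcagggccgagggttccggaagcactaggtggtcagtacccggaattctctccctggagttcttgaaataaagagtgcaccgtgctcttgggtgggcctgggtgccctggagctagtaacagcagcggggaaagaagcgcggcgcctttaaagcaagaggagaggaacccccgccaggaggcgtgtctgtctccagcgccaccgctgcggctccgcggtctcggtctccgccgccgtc
Neto2: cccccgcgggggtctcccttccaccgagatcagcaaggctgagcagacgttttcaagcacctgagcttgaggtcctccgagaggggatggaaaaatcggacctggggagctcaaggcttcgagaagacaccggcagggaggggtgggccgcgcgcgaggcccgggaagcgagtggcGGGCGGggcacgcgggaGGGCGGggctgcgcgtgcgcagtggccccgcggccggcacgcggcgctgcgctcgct

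A cyclic AMP response element, searched as TGACGTCA, was in neither window and in 1.55% of all promoters. The left part of the RE1 element bound by the repressor REST, searched as TTCAGCACC on both strands, was also in neither window and in 0.301% of all promoters. No match says only that these letters are not in these windows.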

How the data were processed

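Striatal RNA of 4 R6/2 and 4 WT samples was measured on 1-colour arrays labelled with Cy3. Per the file headers, the scanner files come from Feature Extraction 10.7.3.1, and the authors deposited the intensity of each spot, including a processed signal with background subtracted and spatial detrending, not scaled between arrays. The authors' deposited table of the series holds log2 values, which equal log2 of that signal less a constant per array that leaves 75.0% of values below 0 (column medians -3.49 to -3.27, no centring of genes, direction R6/2 relative to WT). It also holds the authors' p-values from an unpaired t-test with Benjamini-Hochberg correction and their fold ratios, per the file headers.

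Here log2 of the processed signal minus the array's 75th percentile was used, spots marked as outliers were left out, and spots of a probe were averaged. A probe well above background on at least 4 of 8 arrays was tested in limma 3.58.1 (lmFit, then eBayes; R 4.3.3). Adjustment was over all 35121 tested probes, at a threshold of 0.05. Of 55681 probes, 26762 were named through a transcript accession, 6481 kept the file's symbol and 22438 had none. Pairs of probes were compared with exact permutation tests. The procedure was tested on simulated data.

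The members and gene lists were chosen with earlier results of these data known. Named were all members, up to 6 called genes of the AMPA and NMDA list and of the partner list (or the 2 of smallest p), and the 3 genes most like the member probe of smallest p. Penk, Tac1, Th, Gfap, Slc17a7 and Cbln2 were named after their values were seen.

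Arrays of the same replicate number deviated together (r = 0.133 to 0.356 over probes after each genotype's mean was taken off, over 0.1 in 4 of 4 pairs, against -0.190 to 0.047 for other pairs). The reported limma fits, their intervals and the permutation tests were unpaired and did not use these numbers. A fit with the replicate number as a block was run only as an alternative, and gave 283 calls over the array against 529. The labels do not say what the numbers mark.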

Additional observations from a re-analysis of the deposited data

Results flagged for a closer look

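At the Grik2 downstream probe, R6/2 array 4 had a log2 signal of -1.67 while the other R6/2 arrays lay between -1.79 and -1.78, so its distance from them made up nearly the whole range of the group. It was the R6/2 array nearest to WT, and without it the probe kept its call. Of 26 groups of 4 arrays looked at, 1 stood out in this way, and chance gives about 1 in 20.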

How the results depend on the processing

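All 13 log2 differences stayed negative in all 18 alternatives, and 0 of 234 values changed sign. The calls were less steady. Against 3 called probes and 529 over the array as reported, background correction by normexp gave 5 and 981, array weights 5 and 982, the methods' t-test 1 and 264, and no filter on dim probes 0 and 110. Quantile normalization gave 2 and 578, with Neto2 upstream lost (adjusted p = 0.0544). The authors' normalized values gave 1 called member probe and 491 over the array. With 1 probe a gene and adjustment over genes, chosen after seeing the data, 1 member gene was called (Neto2, limma adjusted p = 0.0389). Over all genes, 444 of 17807 were called that way. Robust eBayes with an intensity trend gave 4 called member probes and 1024 over the array, and the replicate block 3 and 283. With the array's replicate number as a block, the calls of Grik2 and Neto2 did not change. The calls added were Grik2 upstream (adjusted p = 0.0433 with normexp, 0.0418 with array weights) and Neto1 upstream (0.0331 with normexp, 0.0389 with array weights, 0.0413 with robust eBayes). The median member difference was -0.22 with normexp. Of the AMPA and NMDA genes, 2 as reported, 1 was called with the authors' normalized values, and 0 with the methods' t-test, without a filter or with the replicate block. Of the partners, 0 as reported, 2 were called with normexp and 2 with robust eBayes. Leaving out 1 array at a time gave 100 to 505 calls over the array, 0 to 3 member probes, a median difference of -0.39 to -0.21, 0 to 1 partner genes and 0 to 1 AMPA and NMDA genes. Slide and scan date were not run as blocks, since all arrays shared both. The dimmest member probes were Grik1 upstream and Grik3 upstream, and whether their low signal hid a change was not tested. The causes of these shifts were not tested.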
